A study of Mus musculus with 30 samples.

Results

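The 9 genes described here, Fos, Fosb, Jun, Junb, Jund, Egr1, Dusp1, Ier2 and Klf6, are immediate early genes. They were chosen by name and taken by their Entrez gene numbers from the deposited table, in which all 9 were found among 23013 gene rows. The table holds Seq-Well libraries, in which single cells and barcoded beads share small wells and polyadenylated RNA is tagged per cell. The 30 libraries came from 8 male DBA1/J mice and 8 organs, the mice being aged 8 to 12 weeks by the study's methods. The 4 mice with collagen-induced arthritis (CIA), called S1, S2, S6 and S7, had received 100 µg of bovine collagen II in complete Freund's adjuvant near the base of the tail and a boost with incomplete adjuvant on day 20. Arthritis was scored 8 in S1 and S2, 3 to 4 in S6 and 3 in S7, and 0 in H3, H4, H6 and H7, which were healthy. By the study's methods, control mice had received phosphate-buffered saline by a similar injection. DBA1/J is an inbred strain that is prone to this arthritis, and no allele or transgene differed between the groups.

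Immediate early genes are switched on within minutes of a stimulus, without new protein synthesis, when MAP kinases and calcium signals act on factors already bound to their promoters. Fos and Jun proteins pair to form the transcription factor AP-1. The same genes respond to cutting, warming and enzymes, so they are known both as markers of cell activation and as markers of how a tissue was taken apart. The samples had been frozen in dimethyl sulfoxide and serum and were thawed in warm water before use. Joint, lung, muscle and skin were then minced and treated for 120 min with collagenase and DNase, at 1.5 mg/mL collagenase for joint, 1.8 for lung, 2 for muscle and 2.6 for skin. Spleen, thymus and lymph node were pressed through a strainer instead, and blood cells came from a density gradient. Red cells were lysed in the strained organs, and the study's methods also name blood and organs in general for this step. Organ and handling cannot be told apart, because each organ was handled in 1 way, and per the labels all organ samples had been frozen.

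Blood and lymph node had 4 healthy and 3 CIA mice each. Joint had the healthy mouse H3 and the CIA mouse S1, and lung, muscle, skin, spleen and thymus had H6 and S1. The libraries of 1 mouse and organ were added up, which gave 26 profiles. Values are given in UPM, the summed units of the deposited signal per 1000000 after a trimmed-mean scaling. Libraries held 27 to 934 barcodes and 217494 to 7886790 units, and 13 barcode sequences occurred in 2 or more libraries. The smallest were the blood library of H3 (27 barcodes) and the muscle library of S1, whose 54 barcodes held only 16 distinct profiles in values that the authors had smoothed over neighbouring cells. Haemoglobin rows took 3.57% to 56.1% of the units in blood. Library names end in CIA (13 libraries) or 2CIA (17), a mark that the labels do not explain and that was treated as a batch. In lung, muscle, skin, spleen and thymus it separated the healthy from the CIA library. The labelled organs were checked against cell type markers: T cell markers were highest in thymus (6830 and 7735 UPM) and keratinocyte markers in skin (1700 and 2705 UPM), whereas skeletal muscle markers reached only 49.6 UPM in the muscle of H6 and 1691 UPM in that of S1. The muscle library of H6 held 109004 UPM of neutrophil markers, and endothelial markers were at 0 in both lung libraries.

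On GRCm38, Fos is at chr12:85473890-85477274, Fosb at chr7:19302696-19310118, Jun at chr4:95049036-95052222, Dusp1 at chr17:26505591-26508472 and Klf6 at chr13:5861489-5870393. Jund (chr8:70697739-70700616), Ier2 (chr8:84661331-84662852) and Junb (chr8:84976909-84978748) share chromosome 8. To describe the promoters, the 250 bases upstream of the RefSeq start (GRCm38.p6) were searched on both strands in the 7 members with an entry. The letters TGACG, the core of the cyclic AMP response element (CRE) to which CREB and ATF proteins bind, occurred in Fos, Fosb, Junb and Dusp1, that is in 4 of 7 members and in 17.8% of 32851 promoter windows. The full palindrome TGACGTCA, which contains TGACG on each strand, occurred in Dusp1 alone of the 7 and in 1.55% of windows. The AP-1 site, TGACTCA or TGAGTCA, was in 0 of 7 members and 4.46% of windows, and the CArG box of serum response factor in 0 of 7 and 1.47%. TATAAA was found in Fos, at -33 from the start, and in 12.4% of windows. The last 150 bases before the start are printed 5′ to 3′ on the strand of the gene, with TGACG on either strand in capitals, for Fos (chr12:85473740-85473889, plus strand), Fosb (chr7:19310046-19310195, minus strand), Junb (chr8:84978749-84978898, minus strand) and Dusp1 (chr17:26508473-26508622, minus strand).
Fos: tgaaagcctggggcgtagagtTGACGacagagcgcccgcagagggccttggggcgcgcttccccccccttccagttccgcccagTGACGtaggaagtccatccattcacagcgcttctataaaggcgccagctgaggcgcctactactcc
Fosb: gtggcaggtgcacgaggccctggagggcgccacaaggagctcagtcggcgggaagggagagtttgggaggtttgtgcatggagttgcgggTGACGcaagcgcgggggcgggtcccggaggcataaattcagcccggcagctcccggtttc
Junb: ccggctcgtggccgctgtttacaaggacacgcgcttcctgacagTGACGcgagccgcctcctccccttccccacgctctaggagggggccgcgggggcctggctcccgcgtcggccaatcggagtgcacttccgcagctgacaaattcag
Dusp1: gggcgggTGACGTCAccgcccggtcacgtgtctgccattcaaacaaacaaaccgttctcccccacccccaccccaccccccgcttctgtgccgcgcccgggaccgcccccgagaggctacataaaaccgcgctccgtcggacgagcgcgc
In Fos the letters begin at -129 and at -66, in Fosb at -60, in Junb at -106, and in Dusp1 the palindrome begins at -143 with a further TGACG at -191, outside the printed stretch. A match describes these letters only, and no binding was measured. Bases further upstream and the members without an entry were not searched, so a count of 0 holds for this window only.

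Across organs, Fos was highest in joint and low in lymph node and blood, and the strained spleen lay above part of the digested organs. Fos stood at 2118 UPM in the joint of H3 and 2308 in that of S1. It stood at 956 and 785 in the skin of H6 and S1, at 833 and 169 in lung and at 365 and 1971 in muscle. In the strained organs it was at 986 and 1168 in the spleen of H6 and S1, at 566 and 509 in thymus, and in lymph node at 280, 275, 445 and 445 in H3, H4, H6 and H7 and at 188, 174 and 256 in S1, S2 and S7. In blood Fos was at 91.1, 304, 367 and 490 in H3, H4, H6 and H7 and at 443, 343 and 279 in S2, S6 and S7. On the UPM scale joint ranged above all other organs without overlap, whereas under total scaling Fos was at 2279 per 1000000 in the muscle of S1, beside 2257 and 1537 in the joints of H3 and S1. On the UPM scale both spleens lay above both lungs, both skins and the muscle of H6.

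The other AP-1 genes took different orders. Fosb, whose protein pairs with Jun proteins as Fos does, was at 722 and 604 UPM in joint, 488 and 493 in spleen, 332 and 409 in skin and 249 and 311 in thymus, against 53.7 to 159 in lymph node and 0 to 118 in blood. Jun was at 1651 and 1728 in joint and at 1203 and 1838 in spleen, and lowest in the lung of S1 (223). Junb varied least, 4.27-fold between its lowest (850 UPM in the blood of H3) and highest profile (3630 in the blood of H4). Under total scaling it also varied least, 2.33-fold, and its highest profile was then the blood of S7 at 2697 per 1000000. Jund, the Jun protein that many cells make at rest, was highest in spleen (882 and 657 UPM) and lowest in lung (182 and 142). Both skins (253 and 258) lay below both joints (581 and 657), both spleens and both thymuses (461 and 661) for Jund. By the mean of the states, joint led for Fos, Fosb, Jun and Junb and spleen for Jund on this scale.

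Among the members outside AP-1, Egr1 (chr18:34861207-34864956), a zinc-finger factor induced by growth signals, stood at 1150 and 1362 UPM in joint, 827 and 924 in skin, 439 and 478 in spleen, 305 and 132 in lung and 228 and 154 in thymus. In muscle Egr1 was at 292 in H6 and 1818 in S1. Dusp1, the phosphatase that switches MAP kinases off, was at 756 and 910 in joint and 316 and 851 in spleen and lay between 146 and 374 in lymph node. By the mean of the states Ier2, a small nuclear protein of the same early response, was highest in spleen (825 and 1400) and thymus (1016 and 1019) and lowest in lung (545 and 180). Klf6, a Krüppel-like zinc-finger factor, departed from the rest. By the same mean it was highest in skin (2838 and 1714), then joint (1166 and 1717) and lung (1481 and 1286), and lowest in thymus (397 and 375). Single profiles of lymph node (from 259) and blood (from 327) lay lower. Over the 9 genes, joint led for 6, spleen for 2 and skin for 1 on the UPM scale, while under total scaling joint led for 3 (Fos, Fosb and Dusp1), muscle for Jun and Egr1, spleen for Junb and Jund, thymus for Ier2 and skin for Klf6. Ranking the organs by the mean of the states gave 63 neighbouring pairs, of which 51 overlapped in their ranges and 12 did not.

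**Figure D1:**
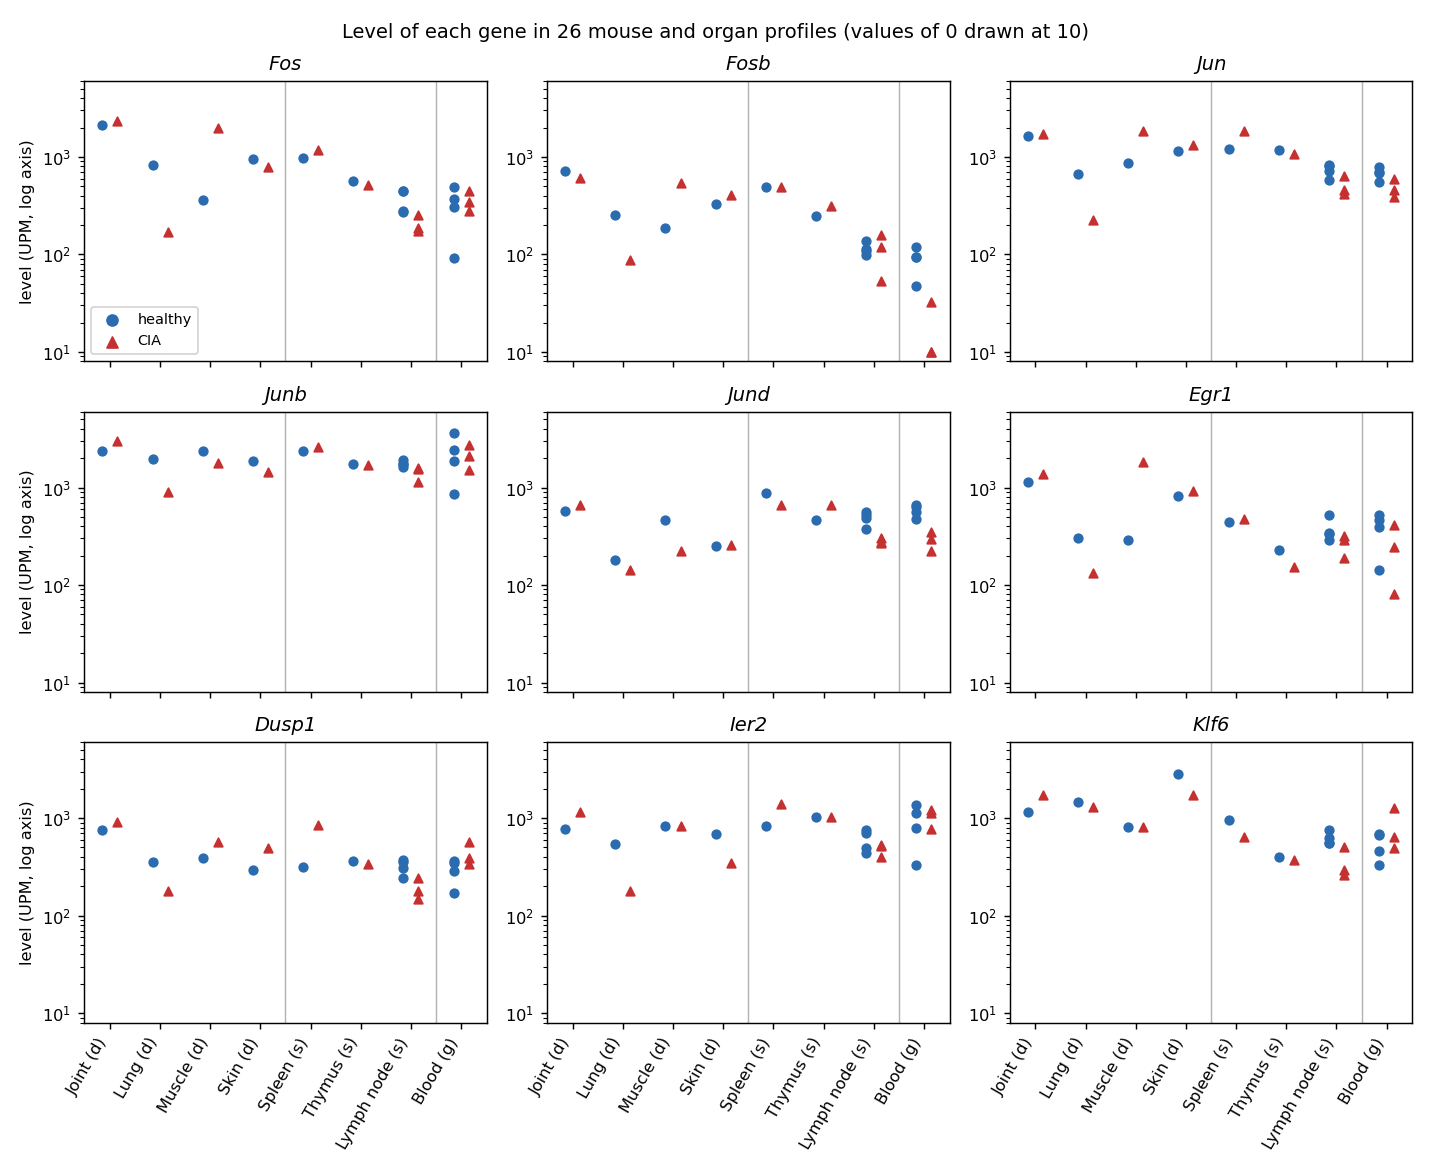
Level of each of the 9 genes in UPM (log axis) in the 26 profiles by organ, with d for digested, s for strained and g for gradient; circles are healthy and triangles CIA mice, and each point is 1 mouse. Fos runs from 91.1 in the blood of H3 to 2308 in the joint of S1, and the 2 values of Fosb listed at 0 (blood of S6 and S7) are drawn at 10.

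Which genes moved together over the 26 profiles is given as a description, since these profiles share mice, libraries and scaling. The closest pairs by Spearman correlation were Fosb with Jun (0.87), Fos with Jun (0.86) and Fos with Fosb (0.82), and Junb with Ier2 followed at 0.72. The 36 pairs had a median of 0.47 and ran from -0.14 (Jund with Klf6) to 0.87. Among the 5481 genes compared, those closest to Fos were Mgst3 (0.86), Acer3 (0.80), Commd3 (0.80), Crip2 (0.78) and Id1 (0.78). Among those closest to the mean of the 9 were Id3 (0.84), an inhibitor of helix-loop-helix factors, Cd81 (0.84), Mgst3 (0.83) and Hbegf (0.81), a growth factor that is itself an early response gene.

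To ask how far handling went along with these levels, the 4 digested organs were compared with the 3 strained ones, each organ being the mean of S1 and of its healthy mouse (H6, or H3 for joint). Klf6 stood at 806 to 2838 UPM (median 1383) in the 8 digested profiles and at 294 to 947 (median 509) in the 6 strained ones. As organ means the groups did not overlap for Klf6, which held for 8.25% of genes tested in this direction and 7.36% in the other. Its log2 difference was 1.42 (SE 0.43), with a limma adjusted p = 0.101, so that it was not called. Over 17 alternatives it lay between 1.19 and 1.73 with adjusted p from 0.0472 to 0.488, and it was called under median-of-ratios scaling only.

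For Egr1 the difference between digested and strained organs was 1.07 (SE 0.57; limma adjusted p = 0.363), with the digested profiles at 132 to 1818 UPM and the strained ones at 154 to 478. It was 1.61 without lung, whose Egr1 was low (limma adjusted p = 0.0793), and 0.43 in the healthy mouse H6 alone, which gave no joint library. For Fos it was 0.68 (SE 0.57; limma adjusted p = 0.555), at 169 to 2308 UPM against 188 to 1168, and for Fosb 0.38 (SE 0.56; limma adjusted p = 0.762). Within H6 alone, whose organs carried 1 name ending and did not include joint, the difference of Fos was 0.08. It was 0.24 without joint and 0.22 without lymph node, but 1.08 without lung and 1.15 without spleen, and was not called in any of these. The value was 0.02 for Jun (SE 0.51), -0.02 for Junb (SE 0.36), 0.37 for Dusp1 (SE 0.48), -0.44 for Ier2 (SE 0.47) and -0.83 for Jund (SE 0.48; limma adjusted p = 0.403). In all, 0 of the 9 genes were called by limma, against 152 of 5854 genes tested (2.6%). At an unadjusted p under 0.05 lay 1 member, Klf6, on the higher side, as did 10.2% of all genes, and 0 members on the lower side, as did 6.88%. The median of the 9 was 0.37 beside -0.13 for all genes. The standard errors ran from 0.36 to 0.57, so that with 7 organs a difference of 2-fold, 1 on this log2 scale, was not reliably detectable.

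Other genes of the stress response were taken from 6 lists of related genes. Of the 72 listed genes tested, 10 were called higher in the digested organs and 0 lower, beside 1.96% and 0.632% of all genes. The metallothioneins Mt1 and Mt2, small proteins that bind zinc and copper, were at 112 to 1138 UPM (median 795) and 41.3 to 1466 (median 586) in the 8 digested profiles. In the 6 strained profiles Mt1 was at 0 to 72.5 and Mt2 at 0 to 60.9. Hmox1, which breaks down haem, was at 24.5 to 1661 UPM in the digested profiles and was listed at 0 in 5 of the 6 strained ones, with 24.8 in the sixth. The log2 difference was 4.54 for Mt1 (SE 0.55; limma adjusted p = 0.00107), 4.63 for Mt2 (SE 0.78; adjusted p = 0.00807) and 5.01 for Hmox1 (SE 0.66; adjusted p = 0.00195), fitted values that depend on the 10 UPM added.

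Bag3, a helper of the Hsp70 chaperones, was at 35.7 to 170 UPM in the digested profiles and at 0 to 5.68 in the strained ones (log2 difference 3.36, SE 0.50; limma adjusted p = 0.00366). Hspa1a, one of 2 near-identical Hsp70 genes whose reads can be shared, was at 84.8 to 596 against 30.4 to 68.3 UPM (2.55, SE 0.56; adjusted p = 0.0289). Sqstm1, a carrier of cargo for autophagy, was at 219 to 544 against 25.3 to 163 UPM (2.44, SE 0.47; adjusted p = 0.0136). Atf3, a stress-induced partner of AP-1, was at 230 to 1016 against 28.2 to 399 UPM (2.76, SE 0.59; adjusted p = 0.0238). Cebpb (2.32, SE 0.48; adjusted p = 0.0212), Ccn1 (3.37, SE 0.77; adjusted p = 0.0319) and Sgk1 (1.92, SE 0.44; adjusted p = 0.0326) completed the called genes by limma. Ccn1 was at 0 to 512 UPM in the digested profiles and listed at 0 in all 6 strained ones. It was not called with 1 UPM added, and the fitted values of Ccn1 and Bag3 also depend on the 10 UPM added. Ccn1, Bag3, Hmox1 and Mt2 reached the mean of 25 UPM required for testing only through the digested profiles, so the filter fixed their direction. By list, 4 of 10 tested oxidative, metal and endoplasmic reticulum stress genes, 2 of 13 heat shock genes, 3 of 29 other immediate early genes and 1 of 8 AP-1 and ATF partners were called, and none of 4 dual-specificity phosphatases and 8 upstream kinases and factors. The list medians were 1.77, 0.51, 0.77, 1.84, -0.40 and -0.12. At an unadjusted p under 0.05 lay 7 of the 8 AP-1 and ATF partners, 12 of the 29 other immediate early genes, 7 of the 10 oxidative, metal and endoplasmic reticulum stress genes, 4 of the 13 heat shock genes and 1 of the 8 kinases and factors on the higher side, and 1 other immediate early gene and 1 phosphatase on the lower, beside the 10.2% and 6.88% of all genes given above. Of the genes not called, but among the 2 with the smallest p of their own list, Jdp2 differed by 2.28 (limma adjusted p = 0.0595), Dusp2 by -2.34 (adjusted p = 0.0867), Dusp10 by -1.04 (adjusted p = 0.393), Mapk3 by 1.65 (adjusted p = 0.194) and Elk4 by -0.91 (adjusted p = 0.377).

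Some cell type markers also stood at other levels in digested than in strained profiles, though the ranges given here overlapped. Fibroblast markers summed to 0 to 44218 UPM in the digested profiles, with 7 of 7 markers above 0, and to 0 to 12.6 in the strained ones, where 6 of 7 (Col1a1, Col3a1, Dcn, Lum, Mgp and Sparc) were at 0. Macrophage markers summed to 98.2 to 18409 against 31.4 to 3649 UPM, and T cell markers to 24.3 to 796 against 504 to 7735. Neutrophil markers summed to 31.5 to 194854 against 86.6 to 105249 UPM. The lung of S1 had fibroblast markers at 0, 11995 UPM of neutrophil markers, 10553 UPM of macrophage markers, of which 10345 were Lyz2, a gene that neutrophils also express, 420 UPM of Mt1 and 1270 of Hmox1. The part of these cell types, or of digestion, in the differences was not tested, and in summed profiles fewer cells of a type cannot be told from less RNA per cell. The 10 genes kept their direction in each of 17 alternatives, but 2 of them (Mt1 and Hmox1) were called in the mouse H6 alone (no joint), 5 in S1 alone, 3 without lymph node, 4 without joint or without thymus and 10 without lung. Over all organs 3 were called without a filter on low values and 5 without the trend.

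**Figure D2:**
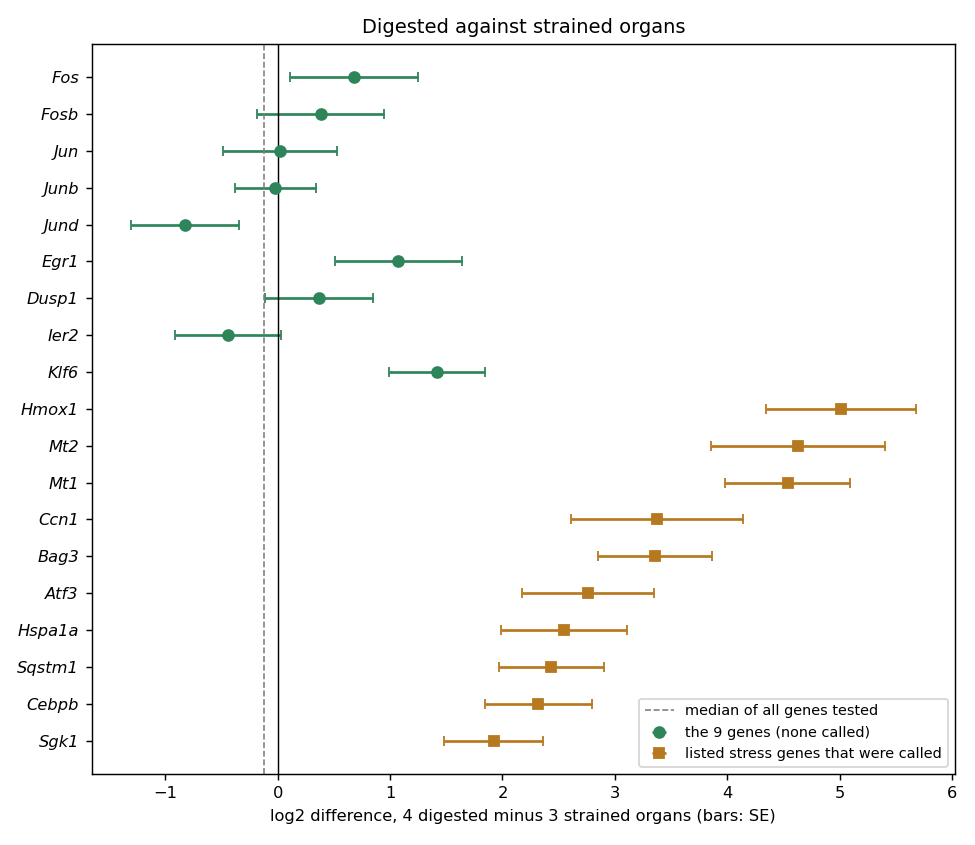
The log2 difference between 4 digested and 3 strained organs on the log2(UPM + 10) scale, with bars of 1 SE, for the 9 genes (circles) and the 10 listed stress genes called by limma (squares); the dashed line is the median of all genes, -0.13. The 9 genes lie between -0.83 and 1.42, and the called genes between 1.92 and 5.01.

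To set like cells side by side, barcodes were grouped by marker genes, which had to make up at least 1% of a barcode's units for neutrophils, fibroblasts, keratinocytes or red cells and 0.1% for T or B cells, the list furthest above its minimum giving the name, and libraries with at least 20 such barcodes were compared. These values are per 1000000 of the barcodes' own units, without the trimmed-mean factor, and smoothing can carry markers between neighbouring barcodes. Wells with more than 1 cell were not looked for and free RNA was not subtracted, so a barcode can hold markers of cells other than its own. The distinct profiles behind 1 value numbered 5 to 57 in fibroblast-rich, 4 to 171 in neutrophil-rich, 5 to 122 in B-cell-rich and 10 to 461 in T-cell-rich barcodes. In fibroblast-marker-rich barcodes Fos stood at 4009 in the joint of H3, and at 2552 (ending 2CIA) and 2740 (ending CIA) in the libraries of S1. In skin it stood at 703 in H6 and 1984 in S1. Within each of the 3 joint libraries, which came from 2 mice, the fibroblast-rich barcodes had more Fos than the neutrophil-rich ones, which stood at 756, 1127 and 678. Egr1 did the same, at 2237, 1605 and 1699 against 405, 620 and 172, whereas Klf6 was lower in fibroblast-rich barcodes of the joint, at 865, 647 and 311 against 1265, 1453 and 1419.

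Neutrophil-marker-rich barcodes of digested organs did not have more Fos throughout than those of the strained spleen. Fos was at 1035 in the spleen of S1, at 756, 1127 and 678 in the joint libraries given above, of which 1 lay above spleen, and at 467 in S2 and 1019 in S7 in blood, but at 197 in the muscle of H6 and 130 in the lung of S1. Klf6 in the same barcodes was at 2267 in lung, 1265 to 1453 in joint, 1401 and 1472 in blood, 847 in muscle and 748 in spleen. In B-cell-marker-rich barcodes Fos was at 1053 and 1190 in the spleen of H6 and S1, at 358 and 421 in the blood of H6 and H7 and at 432 in the digested muscle of H6. In lymph node, strained like spleen, it was at 116 to 620 over the 7 libraries with enough B-cell-rich barcodes. The 2 spleen values thus lay above all 10 others of this class. In T-cell-marker-rich barcodes Fos was at 640 and 573 in thymus, 167 to 449 in lymph node, 466 in the muscle of H6 and 562 in the blood of H7.

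**Figure D3:**
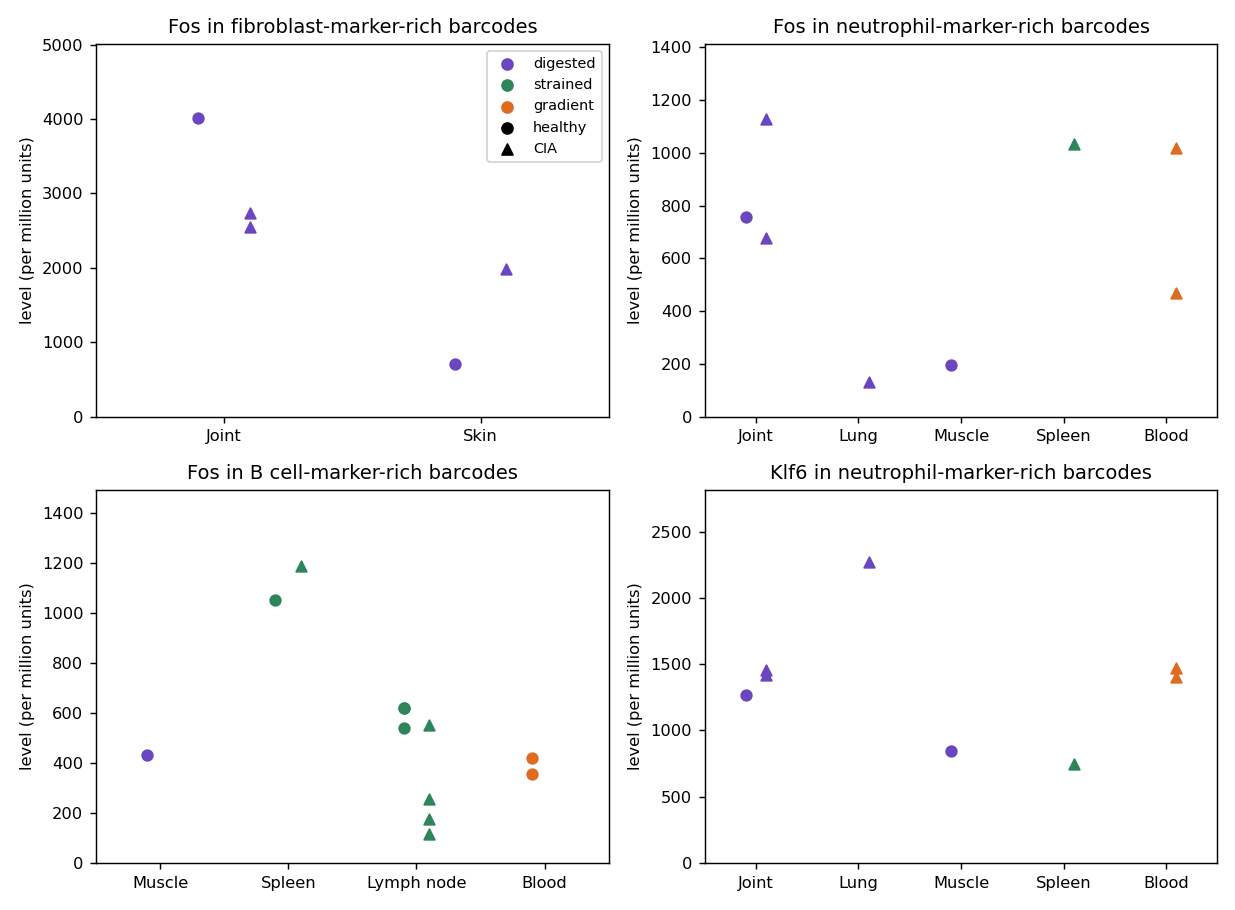
Level per 1000000 units of Fos in barcodes rich in fibroblast, neutrophil or B cell markers and of Klf6 in neutrophil-marker-rich barcodes, by organ; each point is 1 library with at least 20 such barcodes, coloured by handling, with circles for healthy and triangles for CIA mice. Spleen lies highest for Fos in B-cell-rich barcodes (1053 and 1190), and lung highest for Klf6 in neutrophil-rich ones (2267).

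Whether arthritis went with these genes could be tested in lymph node and blood. In lymph node the fitted difference of all 9 genes lay below 0, that is towards lower levels in CIA mice, but none was called. The groups did not overlap for 5 of them (Fos, Junb, Jund, Dusp1 and Klf6), which held for 2.56% of the genes tested in this direction and 3.44% in the other. Klf6 was at 750, 562, 621 and 562 UPM in H3, H4, H6 and H7 and at 294, 259 and 503 in S1, S2 and S7. Jund was at 567, 376, 527 and 491 in the healthy and at 270, 277 and 301 in the CIA mice. Dusp1 was at 245, 357, 309 and 374 and at 146, 178 and 242, and Junb at 1757, 1726, 1621 and 1929 and at 1565, 1145 and 1595. Klf6 overlapped, however, among the libraries ending in CIA, where S7 was at 573 and H4, H6 and H7 were at 404, 621 and 562. For Fos, given above, the highest CIA mouse (256) lay just below the lowest healthy mouse (275).

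The log2 difference in lymph node was -0.86 for Klf6 (SE 0.28), -0.76 for Jund (SE 0.26), -0.76 for Fos (SE 0.30), -0.75 for Dusp1 (SE 0.30) and -0.55 for Jun (SE 0.25). It was -0.46 for Egr1 (SE 0.30), -0.30 for Junb (SE 0.20), -0.27 for Ier2 (SE 0.27) and -0.15 for Fosb (SE 0.36). After adjustment over 4964 genes 0 of the 9 were called by limma, the adjusted p being 0.979 for the 5 genes with an unadjusted p under 0.05, which 2.26% of all genes had in this direction, and 1 gene in the whole table (0.0201%) was called. The median of the 9 was -0.55 beside 0.07 for all genes.

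Most of these differences were smaller among libraries of 1 name ending. Among libraries ending in 2CIA (H3 and H4 against S1, S2 and S7), Klf6 still differed by -1.11 (limma adjusted p = 0.807), but Fos by -0.19, Jund by -0.18, Dusp1 by -0.22 and Jun by -0.25, and the sign turned for Egr1 (0.47), Fosb (0.38) and Junb (0.01). The 2 libraries of H4 stood apart from each other, with Fos at 298 (ending CIA) and 163 (ending 2CIA), Jund at 462 and 142 and Egr1 at 435 and 90.0 UPM. Those of S7 did so as well, at 312 and 200 for Fos and 401 and 211 for Jund. For Klf6 the CIA and the 2CIA library were at 404 and 646 in H4 and at 573 and 418 in S7. Only S7 gave a CIA-mouse library ending in CIA, so the other name ending allowed no test. Leaving out the 2CIA library of H4, the differences were -0.79 for Fos, -0.83 for Jund and -0.74 for Klf6. Summed erythroid markers lay at 86.1 to 143861 UPM in the lymph nodes of healthy and 206 to 610 in those of CIA mice, and their part was not tested. T cell markers overlapped, at 1766 to 3258 and 1565 to 2292 UPM. Within T-cell-marker-rich barcodes Klf6 lay just apart between 5 libraries of 4 healthy mice (455 to 818) and 4 libraries of 3 CIA mice (259 to 447), as did 1.07% of 4856 genes in this direction, while Fos (191 to 449 and 167 to 356), Dusp1 (213 to 415 and 125 to 230) and Jund (166 to 576 and 194 to 276) overlapped.

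**Figure D4:**
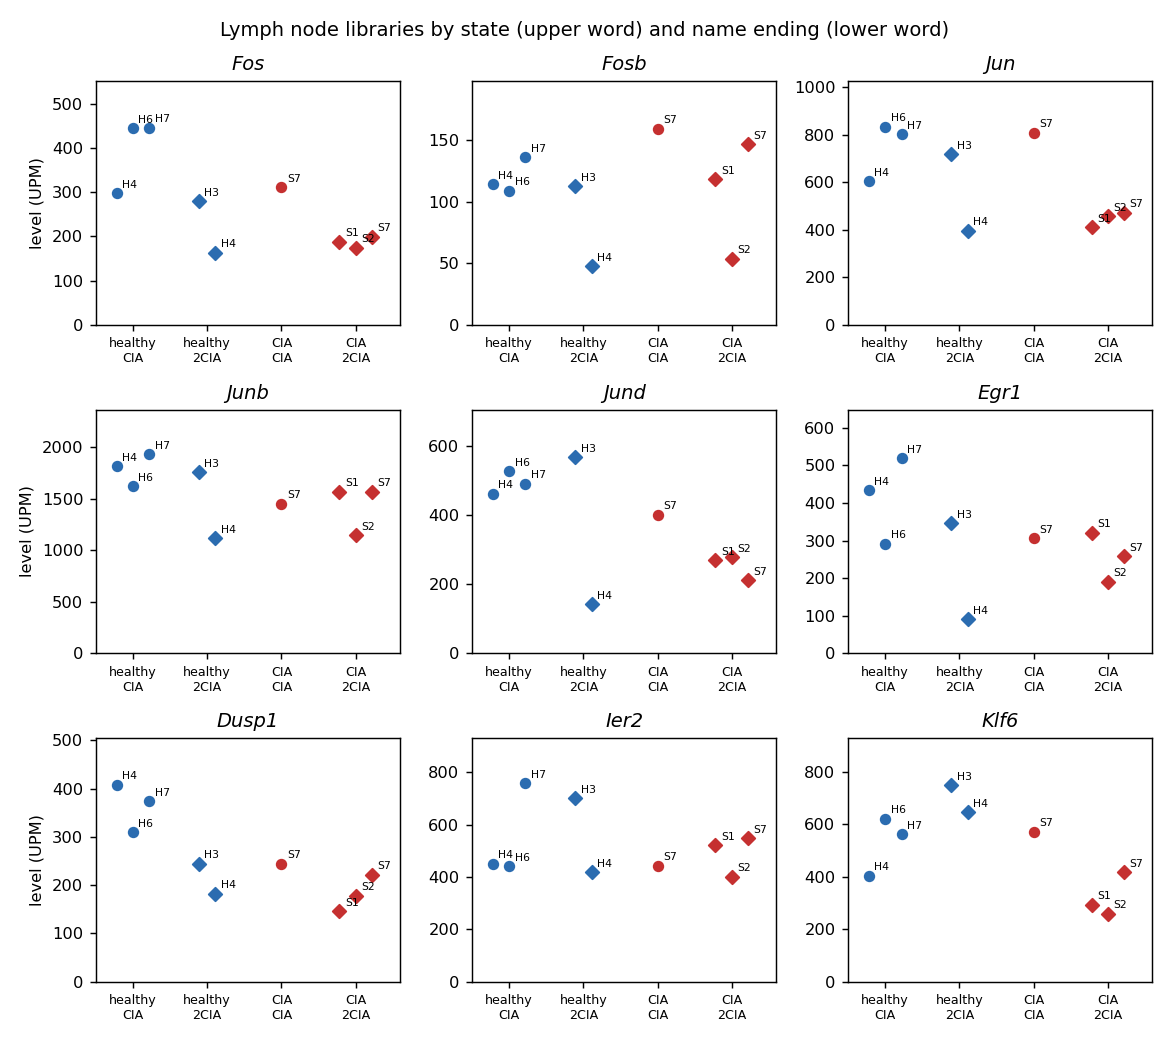
Level in UPM of the 9 genes in the 9 lymph node libraries, grouped by state (blue healthy, red CIA) and by the ending of the library name (circles CIA, diamonds 2CIA), with the mouse beside each point. Klf6 lies lower in CIA than in healthy mice among libraries ending in 2CIA (259 to 418 against 646 and 750), but among those ending in CIA the 1 CIA mouse (573) lies within the healthy ones (404 to 621), and Fos overlaps among the 2CIA libraries (174 to 200 against 163 and 280).

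Of the listed genes in lymph node, 0 were called by limma. Klf2, a factor of resting lymphocytes, differed by -1.22, Gadd45b by 1.08, Elk4 by -1.07 and Dusp10 by -0.96, each with an unadjusted p under 0.05 and a limma adjusted p = 0.979. The others among the 2 genes with the smallest p of each list were Mafk at 0.55, Atf3 at 0.40, Dusp2 at -0.61, Creb1 at -0.79, Hspe1 at 0.42, Hspa8 at -0.46, Txnip at -0.61 and Nfe2l2 at 0.45. Heat shock genes, 11 of which were tested, had a median of 0.01.

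In blood the 9 genes went in both directions, and none was called by limma among 4789 genes, of which 8 (0.167%) were, all higher in CIA. Fosb was the 1 member with an unadjusted p under 0.05, on the lower side, as 8.1% of all genes were. Fosb was at 47.2, 93.0, 118 and 94.6 UPM in H3, H4, H6 and H7, at 32.4 in S2 and listed at 0 in S6 and S7, where only 2705 and 3554 genes were above 0. Its difference was -2.54 (SE 1.00; limma adjusted p = 0.441), a fitted value that depends on the 10 UPM added. Jund was at 472, 628, 654 and 558 in healthy and 293, 225 and 353 in CIA mice, a difference of -0.98 (SE 0.51; limma adjusted p = 0.531). Fosb and Jund were thus the 2 members without overlap, a pattern shown by 7.31% of the genes in this direction and 2.34% in the other. Dusp1 differed by 0.58 (SE 0.54), Klf6 by 0.51 (SE 0.52), Fos by 0.37 (SE 0.58), Ier2 by 0.35 (SE 0.53), Junb by 0.09 (SE 0.55), Jun by -0.51 (SE 0.50) and Egr1 by -0.72 (SE 0.61), with limma adjusted p from 0.708 to 0.976. The median of all genes in blood was -0.47, and relative to it Fos lay at 0.83, Dusp1 at 1.05, Klf6 at 0.98 and Jund at -0.51.

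In blood the direction of Fos, Ier2 and Junb rested on single mice, while the other members kept theirs with any 1 mouse left out. Without H3, whose library of 27 barcodes had the lowest Fos, the difference of Fos was -0.12, that of Ier2 -0.07 and that of Junb -0.30. Among the libraries ending in 2CIA, which include all CIA blood, Egr1 turned to 1.00 and Jun to 0.16, and the median of all genes to 0.32. Fos was then 1.09, Junb 1.09, Ier2 1.19 and Dusp1 1.24, with a limma adjusted p = 0.857 for each. In the blood of healthy and of CIA mice, respectively, the summed UPM of neutrophil markers lay at 1215 to 6015 and 3311 to 105578, of T cell markers at 644 to 1049 and 95.8 to 350, and of erythroid markers at 39307 to 1182690 and 44555 to 632054. Macrophage markers, with C1qa, C1qb and C1qc at 0, lay at 807 to 2024.5 and 2161 to 16769. The part of these cell types was not tested. Listed genes in blood were not called either. Ddit3, an endoplasmic reticulum stress factor, differed by -2.56 (limma adjusted p = 0.277), Creb1 by -2.93 (adjusted 0.361), Gadd45g by -2.27, Dusp2 by -2.30, Klf2 by -1.64, Hspa1b by -2.50, Hspa1a by -2.41, Dusp10 by -2.06, Map2k2 by -2.02, Mafk by -2.07, Ddit4 by -2.08 and Atf4 by -0.79. All 11 heat shock genes tested lay below 0, with a median of -0.92, as did 68.7% of all genes.

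Lymph node, a strained tissue, was compared with blood, whose cells came from a gradient, over 7 mice each. Of these, 6 gave both tissues, while S1 gave lymph node and S6 blood only. With the state as covariate, limma called 659 of 4949 genes (13.3%), of which 0 were among the 9. This fit had no term for the mouse and took both tissues of a mouse as independent. At an unadjusted p under 0.05 lay 1 member on the higher side (Fosb) and 1 on the lower (Ier2), beside 23.0% and 5.15% of all genes. Fosb stood at 53.7 to 159 UPM in lymph node and 0 to 118 in blood, a difference of 1.41 (SE 0.50; limma adjusted p = 0.0559). With the mouse as a block it was 1.03 (adjusted p = 0.218), in the healthy mice alone 0.39, and it was called under total scaling (1.66, adjusted p = 0.0271). Ier2 was at 402 to 759 in lymph node and 327 to 1365 in blood, a difference of -0.71 (SE 0.30; limma adjusted p = 0.118), and it was called under median-of-ratios scaling (-0.87, adjusted p = 0.0414), with haemoglobin rows left out of the total (-0.89, adjusted p = 0.0466) and without H3 (-1.002, adjusted p = 0.0218). The other 7 genes differed by -0.39 to 0.19, beside a median of 0.40 for all genes.

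Of the 54 listed genes tested, 5 (9.26%) were called between lymph node and blood, beside 13.3% of all genes: 1 of 4 AP-1 and ATF partners, 3 of 23 other immediate early genes, 1 of 4 phosphatases, and none of 6 kinases and factors, 11 heat shock genes and 6 oxidative, metal and endoplasmic reticulum stress genes. The 2 tissues also differ in their cell types. Atf3 was at 10.03 to 108 UPM in lymph node and 136 to 573 in blood (log2 difference -2.29, SE 0.40; limma adjusted p = 0.000735), and Cebpb differed by -1.64 (adjusted p = 0.00896). Zfp36, which destabilises inflammatory mRNAs, differed by -1.21 (adjusted p = 0.0262), whereas Myc was higher in lymph node by 1.94 (adjusted p = 0.0190) and Dusp10 by 1.64 (adjusted p = 0.0265) by limma. Not called, though among the 2 genes with the smallest p of their own list, were Fosl2 (-1.25), Dusp2 (0.45), Map2k2 (0.89), Creb1 (0.50), Hsp90ab1 (0.60), Hspd1 (0.85), Ddit4 (1.37) and Xbp1 (-0.97).

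The difference between the states was itself compared between lymph node and blood, a test added after the data were seen. It had no term for the mouse and was not run with the mouse as a block. Of 4949 genes limma called 0, though 415 (8.39%) had an unadjusted p under 0.05, among them 3 of the 9. The interaction was 2.40 for Fosb (SE 0.88; limma adjusted p = 0.506), -1.36 for Klf6 (SE 0.57; adjusted p = 0.530) and -1.33 for Dusp1 (SE 0.58; adjusted p = 0.550), so that no member was shown to respond differently in the 2 organs.

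In the organs with 1 mouse per state the values have no replicate check. Members past 2-fold, with 10 UPM added to each side, numbered 6 of 9 in lung, all lower in S1, where 43.5% of genes were past 2-fold and 27.1% in this direction. Fos was at 833 UPM in H6 and 169 in S1, a log2 ratio of -2.23, Ier2 at 545 and 180 (-1.55), Jun at 667 and 223 (-1.54), Fosb at 254 and 88.2 (-1.43), Egr1 at 305 and 132 (-1.15) and Junb at 1968 and 897 (-1.12). Klf6, at 1481 and 1286, had the ratio nearest 0 (-0.20). Under total scaling, or with haemoglobin rows left out of the total, 4 of 9 were past 2-fold, Egr1 (-0.84) and Junb (-0.80) were not, and Klf6 lay at 0.13. In lung, 72 of the 182 barcodes of S1 and none of the 70 of H6 were neutrophil-rich; among the barcodes rich in no marker list, Fos was at 967 per 1000000 in H6 and 333 in S1.

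In muscle 5 of 9 were past 2-fold (53.4% of genes), 4 of them higher in S1 (30.3% of genes) and 1 lower (23.1%). Egr1 was at 292 UPM in H6 and 1818 in S1 (2.60), Fos at 365 and 1971 (2.40), Fosb at 186 and 538 (1.49) and Jun at 859 and 1856 (1.10), while Jund was at 460 and 221 (-1.03), a ratio of -0.78 under total scaling. Fibroblast markers stood at 691 UPM in the muscle of H6 and 11781 in that of S1, neutrophil markers at 109004 and 15896, T cell markers at 796 and 59.3 and B cell markers at 886 and 67.5. Of the 421 barcodes of H6, 158 were B-cell-rich and 90 T-cell-rich, while S1 had none of either among 54. The part of these cell types was not tested. In spleen 1 of 9 was past 2-fold (36.2% of genes, 16.8% higher): Dusp1 at 316 and 851 UPM (1.40). Neutrophil markers stood at 4203 UPM in the spleen of H6 and 105249 in that of S1, and erythroid markers at 495 and 97712, and their part was not tested. In joint (30.4% of genes), skin (26.7%) and thymus (16.0%) 0 of 9 were past 2-fold, with ratios from -0.25 to 0.57, -0.96 to 0.70 and -0.54 to 0.51. The joint values depended on the scaling. The 2 libraries of S1 had Fos at 2338 (ending 2CIA) and 727 UPM (ending CIA), with trimmed-mean factors of 0.669 and 1.59. Scaled by their totals alone they stood at 1565 and 1160 per 1000000 and the library of H3 at 2257. The joint ratios of all 9 genes then lay below 0, from -0.92 (Fosb) to -0.10 (Ier2).

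**Figure D5:**
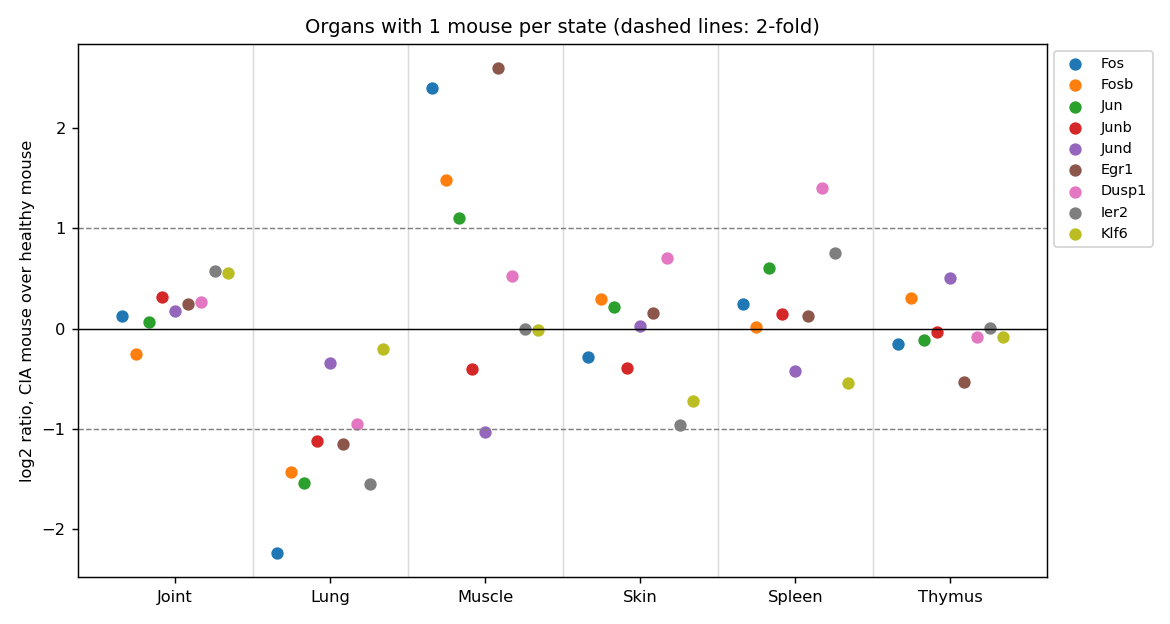
The log2 ratio of the CIA mouse over the healthy mouse for the 9 genes in the 6 organs with 1 mouse per state, with 10 UPM added to both sides and dashed lines at 2-fold. Lung lies below 0 for all 9 genes, Klf6 turning to 0.13 under total scaling, and muscle runs from -1.03 (Jund) to 2.60 (Egr1).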

How the data were processed

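Seq-Well libraries of 8 organs were deposited as 1 table of genes by barcodes, without a cell annotation. The deposited values are a signal, not raw counts: per the methods, the authors aligned reads to GRCm38 and then smoothed the UMI matrix over nearest neighbours with k = 12, with no further detail given. Many barcodes hold identical values, so that no counting interval was computed. The submitters' processing notes name STAR, Picard and bcl2fastq, and GRCh38 and mm9 as builds. Depth ran from 217494 to 7886790 units per library. All barcode columns could be assigned to a sample. Units were summed per mouse and organ and scaled to units per 1000000 (UPM) by a trimmed mean (30% of log ratios, 5% of levels). limma 3.58.1 in R 4.3.3 was fitted with a mean-variance trend to log2(UPM + 10) over all genes whose mean reached 25 UPM, with Benjamini-Hochberg adjustment at 0.05. Fold changes on this scale understate those of low genes. Sums, correlations and plots used numpy 2.4.6, pandas 2.3.3 and matplotlib 3.10.9 in Python 3.11.15, and the limma script was tested on simulated data. P-values measure the spread between mice, or between organs where organs were compared. Between lymph node and blood, fits without a block took both tissues of a mouse as independent.

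The 9 genes were named in every comparison. From each of 6 lists the 2 genes with the smallest p and all called genes up to 6 were named, as were the 5 genes closest to Fos and to the mean of the 9, of which 1 is not reported here. Members and lists were chosen with earlier results of these data known. Promoters came from RefSeq (GRCm38.p6). Blood and lymph node of 1 mouse share the animal, as the labels give the mouse. Deviations from the group means correlated at -0.28 to 0.17 in these 6 mice. Alternatives covered the added 10 UPM, the scaling, the filter, the trend, the name ending, the replicate block and each mouse or organ left out. An interaction, 3 fits without single libraries and the order of organs under other scalings were added after the data were seen.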

Additional observations from a re-analysis of the deposited data

Results flagged for a closer look

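Between the single CIA mouse and the single healthy mouse, 4 genes moved in opposite directions in muscle and in lung, past 2-fold in each. The log2 ratio of CIA over healthy was 2.40 in muscle and -2.23 in lung for Fos. For Fosb it was 1.49 in muscle and -1.43 in lung, for Jun 1.10 and -1.54, and for Egr1 2.60 and -1.15. Each organ had 1 mouse per state, so the difference was not tested, and state, mouse and the ending of the library name cannot be told apart there. Under total scaling Egr1 in lung was at -0.84, not past 2-fold. Each of the 9 genes was examined in healthy blood and in healthy lymph node, 4 mice each, for a mouse far from the others. The measure was Dixon's ratio, the gap to the nearest mouse over the range, and in these 18 sets 0 were found. With 4 values only a large gap is flagged, and Fos in the blood of H3 (91.1 UPM, the others at 304 to 490) was not.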

How the results depend on the processing

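Over all alternatives, values of the 9 genes kept their direction and side of the threshold 542 times, reversed 37 times and became called 6 times. The 8 genes called in blood became 0 with 1 UPM added (396 at an unadjusted limma p under 0.05), 16 with total scaling, 13 with median-of-ratios scaling, 25 without a filter, 0 without the trend (548 at p under 0.05), 13 among names ending in 2CIA and 0 to 16 with a mouse left out (2 without H3, 16 without H4, 0 without S2 with 869 at p under 0.05, 4 without S7). The 1 call in lymph node became 8 without a filter, 0 without the trend (224 at p under 0.05), 3 among names ending in 2CIA and 0 to 7 with a mouse left out (7 without H3, 0 without H6 or S7 by limma, with 174 and 155 at p under 0.05). The 659 calls between lymph node and blood (550 higher, 109 lower) became 272 with 1 UPM added, 368 with haemoglobin rows left out of the total (238 and 130), 172 without a filter, 383 without the trend, 2 in healthy mice alone and 99 to 749 with a mouse left out (143 without H4, 292 without H7, 417 without S1, 99 without S2, 285 without S7), and were split 300 and 142 with median-of-ratios scaling. The 152 calls between digested and strained organs became 90 with 1 UPM added, 27 without a filter, 97 without the trend, 64 in S1 alone, 22 in H6 alone and 28 to 239 with an organ left out (52 without joint, 239 without lung, 79 without thymus, 28 without lymph node). H6 gave no joint library, so the fits in H6 alone left joint out. Beyond the smaller number of samples in fits that leave some out, the cause was not tested.

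In blood, Fos ran from -0.12 to 0.65, Junb from -0.30 to 0.39 (-0.30 without H3, -0.12 without S2) and Ier2 from -0.072 to 0.60 with a mouse left out, and Jun was 0.16 and Egr1 1.00 among names ending in 2CIA. Mouse numbers shared by healthy and CIA mice belong to different animals. With that number as a replicate block, limma called 0 genes in blood (1140 at an unadjusted p under 0.05), and Fos was -0.45, Junb -0.26 and Klf6 -0.0050. Deviations of same-numbered blood samples correlated at 0.22 and -0.13. In lymph node only 1 number was shared, so that block could not be fitted. There, Fosb ran from -0.45 to 0.26 with a mouse left out, and among names ending in 2CIA Fosb was 0.38, Junb 0.013 and Egr1 0.47. Between lymph node and blood, Fos was 0.042 and Jund 0.0034 with total scaling, Jun -0.081 with median-of-ratios scaling and -0.10 with haemoglobin rows left out. In healthy mice alone Fos was 0.38, Dusp1 0.18 and Klf6 0.26. With a mouse left out Fos ran from -0.38 to 0.094 and Egr1 from -0.058 to 0.40, and Fosb was called without H6 (1.67, limma adjusted p = 0.0459). With the mouse as a replicate block 508 genes were called, Fos was 0.016 and Egr1 -0.090, and no member's call changed. Between digested and strained organs Jun was -0.054 with total scaling, -0.059 with haemoglobin rows left out and -0.28 in H6 alone. Junb was 0.10 with median-of-ratios scaling and 0.14 in H6 alone. With an organ left out Jun ran from -0.36 to 0.47 (-0.23 without joint, -0.09 without muscle, -0.08 without skin), Junb from -0.19 to 0.17 (0.14 without lung, 0.04 without skin) and Fosb from -0.16 to 0.85. Depth of the raw reads is unknown after smoothing, which limits what can be said of genes listed at 0.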
